A study of Mus musculus with 6 samples.

Results

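The 34 genes described here encode the enzymes that bring pyruvate into the mitochondrial citrate cycle and turn the cycle, together with the kinases and phosphatases of the pyruvate dehydrogenase complex and a few enzymes that feed or drain the cycle. They were chosen by gene symbol from enzyme names, with earlier results of these data known, and all 34 were found among the 23183 symbols of the deposited files. All 34 also had a mean of at least 1 FPKM (fragments mapped to a gene, scaled to its length in kilobases and to the depth of the library) and so belonged to the 14247 genes tested.

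RNA was sequenced from isolated brain microvessels of 3 WT mice and 3 TEKCRIF1 KO mice, with 1 library per mouse. WT mice were TEK-cre, *Crif1*+/+ and KO mice were TEK-cre, *Crif1* flox/flox, both on C57BL/6, so both groups carried the Tek-driven Cre and differed in the floxed *Crif1* alleles. Crif1 (listed as *Gadd45gip1*) is a protein of the mitochondrial ribosome that is needed for making the respiratory chain subunits encoded in mitochondrial DNA. Mouse age and sex were not given in the sources used here. Cre under the *Tek* promoter acts in the endothelial lineage, whereas the libraries held RNA of every cell that came along with the vessels, and in such bulk samples fewer cells of a type cannot be told apart from less RNA per cell.

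Pyruvate made by glycolysis enters mitochondria and is oxidized to acetyl-CoA by the pyruvate dehydrogenase complex, which is switched off by pyruvate dehydrogenase kinases and switched on again by pyruvate dehydrogenase phosphatases. Acetyl-CoA joins oxaloacetate to form citrate, and the following enzymes return citrate to oxaloacetate while handing electrons to the respiratory chain as NADH and, at succinate dehydrogenase, directly as ubiquinol. Brain endothelial cells draw much of their ATP from glycolysis but are rich in mitochondria compared with endothelium elsewhere.

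Short stretches of DNA just before the start of a gene were compared for letters that known regulators of mitochondrial genes bind. For 30 of the 34 genes, RefSeq (GRCm38.p6) gave 39 windows of 250 bases before a transcript start. GGGCGG, the core of the SP and KLF box, was found on either strand in 22 of the 39 windows, which is 56.4%, and in 32.7% of the 32851 windows of all genes. The palindromic core bound by NRF1 was found in 3 of the 39 windows (*Sdha*, *Sdhd* and *Sucla2*), on either strand, and in 4.98% of all windows. CCGGAAG, bound by ETS factors, was found in 2 of the 39 windows (*Sdhd* and *Idh3g*) and in 6.91% of all. AAGGTCA, a site of estrogen-related receptors, was found in 0 of the 39 windows and in 4.08% of all. These are matches of letters and were not tested. The windows of 3 genes are printed to show the range, *Cs* as the entry enzyme of the cycle, *Suclg2* with the densest run of the SP letters among those printed, and *Pdk4* with none of the 4 motifs. GGGCGG and its reverse complement CCGCCC are in capitals, and each window ends before the first annotated exon.
Cs, chr10:128337477-128337726, plus strand: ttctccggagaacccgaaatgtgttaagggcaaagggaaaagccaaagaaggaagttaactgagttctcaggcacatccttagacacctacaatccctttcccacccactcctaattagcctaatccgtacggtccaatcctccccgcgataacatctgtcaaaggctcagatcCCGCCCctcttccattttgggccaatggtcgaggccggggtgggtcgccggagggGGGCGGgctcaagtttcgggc
Suclg2, chr6:95718847-95719096, minus strand: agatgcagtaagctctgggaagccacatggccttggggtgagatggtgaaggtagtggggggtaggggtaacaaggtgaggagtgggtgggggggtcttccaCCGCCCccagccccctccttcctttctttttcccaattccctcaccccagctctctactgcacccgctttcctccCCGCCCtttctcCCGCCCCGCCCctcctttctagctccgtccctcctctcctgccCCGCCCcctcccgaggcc
Pdk4, chr6:5496310-5496528, minus strand: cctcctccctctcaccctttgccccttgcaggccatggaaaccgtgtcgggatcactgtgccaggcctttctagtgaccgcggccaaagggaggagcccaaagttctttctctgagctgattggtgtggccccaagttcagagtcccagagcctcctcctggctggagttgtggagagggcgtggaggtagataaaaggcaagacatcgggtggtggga
The *Cs* window held 2 matches in opposite orientation. The *Suclg2* window held 5 matches, a pair of which overlapped by 1 base, and the *Pdk4* window, cut to 219 bases at the first exon, held none.

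The libraries also differed within each genotype. Estimated depth ran from 8800000 to 11400000 fragments in WT mice and from 6400000 in KO 2 to 11700000 in KO 3, so that 3 fragments on 1 kb of transcript corresponded to 0.26 to 0.47 FPKM. The targeted *Crif1* was 18.8, 15.3 and 16.5 FPKM in WT 1 to WT 3 and 10.8, 7.54 and 10.4 FPKM in KO 1 to KO 3, lower in every KO mouse (log2 fold change -0.77, SE 0.22, exact permutation p = 0.1, limma p = 0.00534, adjusted p = 0.841). Endothelial markers (10 genes, none at 0) summed to 1014 to 1418 FPKM in WT mice and to 903 to 1195 FPKM in KO mice, and *Pecam1*, *Cldn5* and *Tek* overlapped between the groups. *Cdh5*, the endothelial cadherin, was 86.7, 92.4 and 91.3 FPKM in WT mice and 50.8, 42.5 and 38.1 FPKM in KO mice, lower in every KO mouse, and its part in the results below was not tested. Markers of the choroid plexus, an epithelium that is not part of the microvessel, were high in KO 1 and KO 3. *Folr1*, *Kcnj13*, *Kl* and *Clic6* together summed to 307, 276 and 318 FPKM in WT 1 to WT 3, and to 651, 239 and 968 FPKM in KO 1 to KO 3. With *Ttr* added, the 5 choroid plexus markers summed to 2946 to 3399.7 FPKM in WT mice and 3010.3 in KO 2, against 8913 and 10755 in KO 1 and KO 3, and each of the 5 was higher in KO 1 and KO 3 than in every other library. The summed neuronal markers (10 genes) ran the other way, at 289.5 to 509 FPKM in WT mice, 448 in KO 2, and 263 and 226 in KO 1 and KO 3. Single neuronal markers did not all follow the sum. *Slc17a7* was 73.8, 101 and 105 FPKM in WT mice and 49.4, 79.0 and 32.8 in KO 1 to KO 3. *Stmn2* was 35.7, 60.6 and 81.6 FPKM in WT mice and 49.6, 74.3 and 41.7 in KO 1 to KO 3. *Gad1* was 4.67, 5.31 and 4.38 FPKM in WT mice and 6.73, 10.2 and 2.34 in KO 1 to KO 3. Astrocyte markers (6 genes) summed to 575 to 671 FPKM in WT mice and to 431 to 477 FPKM in KO mice, without overlap. The ranges of the other lists were 243 to 332 FPKM in WT and 259 to 365 in KO mice for pericytes, 245 to 578 and 269 to 775 for smooth muscle, 283 to 409 and 150 to 356 for oligodendrocytes, 132 to 169.8 and 101 to 134 for microglia, and 1765 to 2425 and 1209 to 2341 for erythroid cells. Single markers could differ from their list. Every KO mouse was below every WT mouse in 4 of the 7 pericyte markers (*Pdgfrb*, *Anpep*, *Cspg4* and *Notch3*). The same was true of 2 of 6 astrocyte, 2 of 6 oligodendrocyte, 1 of 6 microglial and 1 of 10 endothelial markers, beside 5.70% of all genes. In 0 markers was every KO mouse above every WT mouse, beside 5.37% of all genes.

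Citrate cycle transcripts were abundant in WT microvessels. Of the 34 genes, 14 were in the highest decile of the genes tested and 14 had a WT mean of 50 FPKM or more. The highest was *Mdh2*, mitochondrial malate dehydrogenase, at 142 ± 6.93 FPKM (mean ± SD, n = 3), followed by its cytosolic counterpart *Mdh1* at 124 ± 15.9, the succinate dehydrogenase membrane anchor *Sdhc* at 124 ± 6.57 and the iron-sulfur subunit *Sdhb* at 105 ± 8.23. *Mdh1* and *Sdhc* did not differ beyond their spread. The lowest 5 were regulators and 1 malic enzyme together with a structural subunit, *Pdhx* at 8.22 ± 1.95, *Pdp1* at 4.96 ± 1.53, *Pdk4* at 4.59 ± 1.17, *Me3* at 4.19 ± 1.54 and *Pdp2* at 2.71 ± 0.142, of which *Pdp1*, *Pdk4* and *Me3* lay within each other's spread. Summed by enzyme, succinate dehydrogenase reached 382 ± 18.8 FPKM, the malate dehydrogenases 266 ± 22.7, NAD-dependent isocitrate dehydrogenase 177 ± 19.0, and the catalytic and core subunits of pyruvate dehydrogenase 129 ± 5.9, whereas citrate synthase, a single gene, stood at 57.4 ± 4.41.

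No gene of the group passed the test between KO and WT mice. Of the 34, 0 had a limma p under 0.05, beside 5.88% of all genes tested, and 0 passed after adjustment, as did 0 of all genes (838 of 14247 had an unadjusted p under 0.05). The smallest p was 0.142, for *Idh2* (limma, adjusted p = 0.848). Fitted differences ran from -0.35 (*Pdp1*) to 0.44 (*Idh2*) on the log2(FPKM + 1) scale, 21 above 0 and 13 below, beside 49.2% above 0 over all genes, and their median was 0.10 against -0.01 over all genes. The median was 0.03 when libraries were corrected for GC content, alone or with length. The 95% intervals reached 0.41 to 0.79 on either side of the fitted value, that is 1.33- to 1.73-fold, so with this fit smaller differences could not be told from 0.

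The KO libraries did not move together, and KO 2 differed in direction from KO 1 and KO 3 in many members. Relative to the WT mean, the median member was 1.17-fold in KO 1, 0.846-fold in KO 2 and 1.24-fold in KO 3, whereas the WT libraries were at 1.03, 0.961 and 1.00. Of the 34 members, 24 were above the WT mean in KO 1, 3 in KO 2 (*Pdhx*, *Pdp1* and *Sucla2*) and 31 in KO 3. In 21 of the 34 both KO 1 and KO 3 were above every WT library, beside 16.3% of all genes, and in 1 (*Pdp1*) both were below, beside 14.3%. KO 2 was below every WT library in 22 of the 34, beside 32.6% of all genes, and was the lowest of the 6 libraries in 20, beside 25.0%. Both patterns together were present in 13 of the 34, beside 5.85% of all genes.

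**Figure D1:**
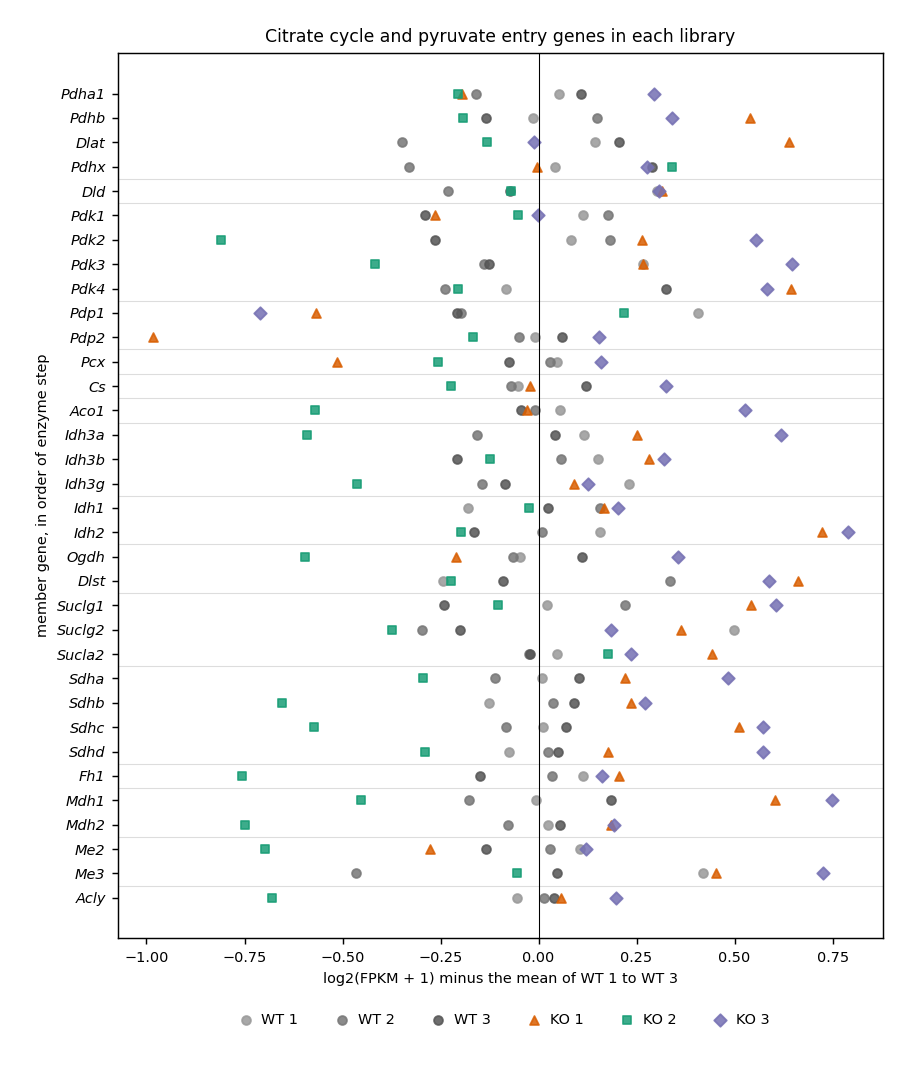
Each row is 1 of the 34 genes in order of enzyme step, separated by thin lines, and the x axis gives log2(FPKM + 1) minus the mean of the WT libraries, with grey circles for WT 1 to WT 3 and a triangle, a square and a diamond for KO 1, KO 2 and KO 3. KO 2 lies left of the WT mean in all but 3 rows, and KO 1 and KO 3 both lie right of every WT library in 21 rows.

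The split between the KO libraries moved with the choroid plexus markers, which were high in KO 1 and KO 3. It moved also with the summed neuronal markers, which were lowest there, though not for each marker. It also moved with transcript length, as longer genes were relatively lower in KO 1 (Spearman's rho with length -0.313 over 13726 genes, a description) and KO 3 (-0.146) and relatively higher in KO 2 (0.291). On GC content the trend was -0.13 in KO 1, -0.259 in KO 2 and -0.0197 in KO 3, against 0.0802 to 0.313 in WT mice. Every KO library was thus below every WT library, so the GC trend cannot be told apart from genotype. After each library was corrected for length, the median member differed from the WT mean by 0.18 in KO 1, -0.23 in KO 2 and 0.27 in KO 3 on the log2 scale. After correction for GC content and length together it differed by 0.14 in KO 1, -0.30 in KO 2 and 0.22 in KO 3, against 0.23, -0.24 and 0.31 without correction. KO 2 had the lowest estimated depth. The part of the cell markers in the result was not tested.

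**Figure D2:**
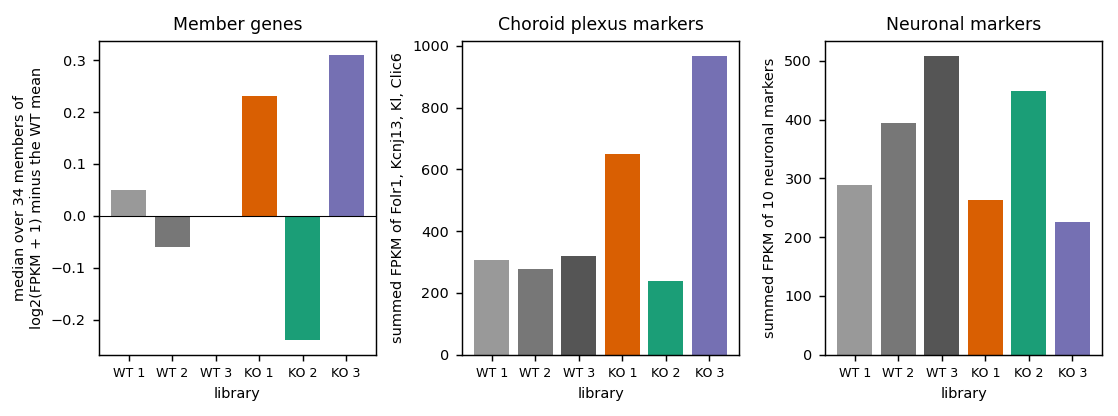
Bars give, for each of the 6 libraries, the median over the 34 genes of log2(FPKM + 1) minus the WT mean (left), the summed FPKM of 4 choroid plexus markers (middle) and the summed FPKM of 10 neuronal markers (right). KO 1 and KO 3 have the highest member medians (0.23 and 0.31) and the highest choroid plexus sums (651 and 968 FPKM), and KO 2 has the lowest member median (-0.24).

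The number of members under the unadjusted threshold depended on KO 2. Without it, 8 of the 34 genes had a limma p under 0.05, all higher in KO 1 and KO 3, beside 7.31% of all genes, and 0 were lower, beside 5.83%. They were *Pdhb*, *Pdk4*, *Idh3a*, *Idh2*, *Dlst*, *Suclg1*, *Sdhc* and *Mdh1*. Where KO 2 was the lowest library, leaving it out raises the KO mean. The values without KO 2 thus describe KO 1 and KO 3 and support nothing further. The smallest adjusted p without KO 2 was 0.159 (*Idh2*), so 0 passed after adjustment, and the median of the 34 was 0.29. Over all genes, 13.1% had a p under 0.05 in either direction without KO 2. KO 2 was also set alone against the WT mice, after it had been seen to be the lowest library in 20 of the 34, so these values describe that library and support nothing further. With the assumption that it varies as the WT mice do, 10 of the 34 had a limma p under 0.05, all lower, beside 8.01% of all genes, 0 were higher, beside 4.80%, and the median was -0.24. These 10 were *Pdk2*, *Aco1*, *Idh3a*, *Ogdh*, *Sdhb*, *Sdhc*, *Fh1*, *Mdh2*, *Me2* and *Acly*. Without KO 3, 13 of the 34 were above 0 and the median was -0.07, with 0 members at a limma p under 0.05, beside 6.97% of all genes.

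**Figure D3:**
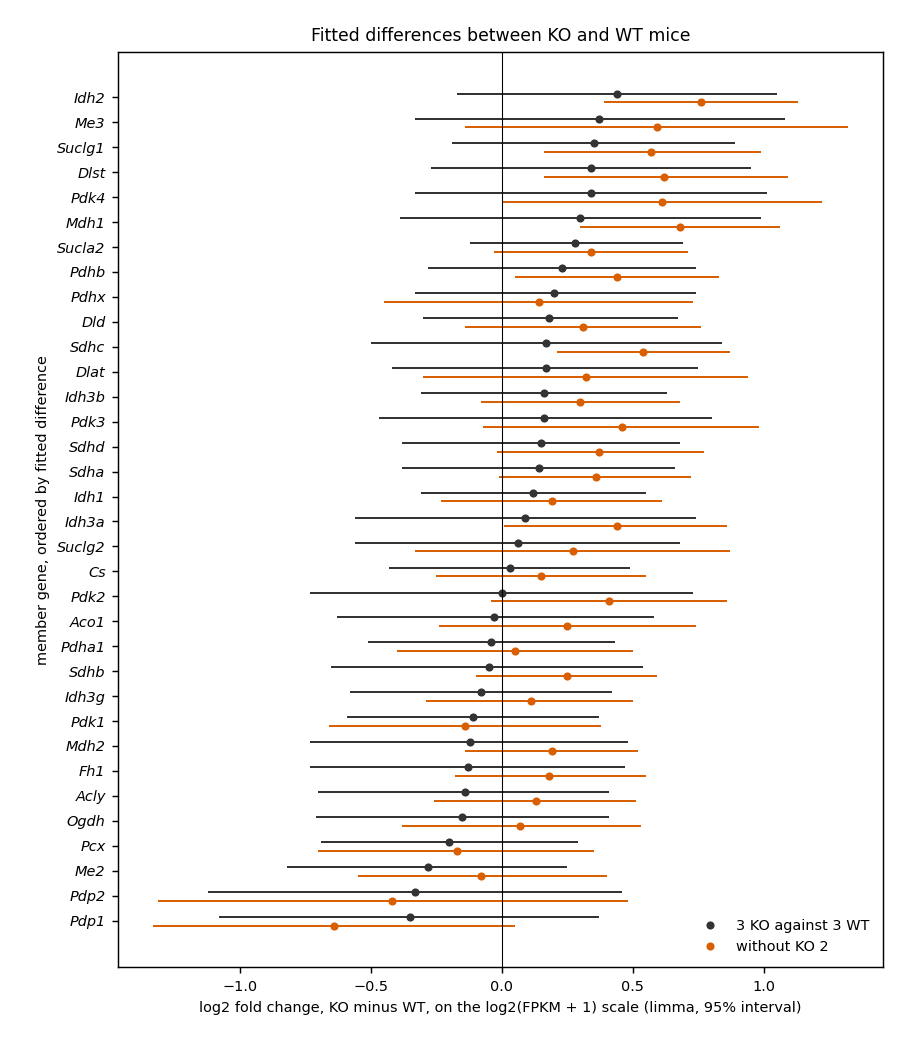
Points give the fitted log2 fold change of KO minus WT for each of the 34 genes and horizontal lines its 95% interval (limma on log2(FPKM + 1)), in black for all 6 libraries and in orange without KO 2. All black lines cross 0, from *Pdp1* at -0.35 to *Idh2* at 0.44, and 8 orange lines lie above 0.

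At the entry of pyruvate, the genes of the pyruvate dehydrogenase complex differed in which KO library was high. *Pdha1*, the catalytic alpha subunit of E1, was 61.2, 52.7 and 63.7 FPKM in WT mice and 51.4, 51.0 and 72.6 in KO mice. Its partner *Pdhb*, the E1 beta subunit, was 47.1, 52.9 and 43.3 FPKM in WT and 69.6, 41.5 and 60.5 in KO mice. The alpha subunit was thus low in KO 1, where the beta subunit was at its highest, and *Pdha1* took 42.5% of the pair's summed FPKM in KO 1 against 49.9% to 59.6% in the other 5 libraries. *Dlat*, the E2 acetyltransferase, had a KO mean of 16.3 ± 5.29 FPKM against 14.2 ± 2.97, with KO 1 the highest library at 22.4. *Pdhx*, which anchors E3 to the E2 core, was 9.52 ± 1.28 against 8.22 ± 1.95, and *Dld*, the E3 shared with the 2-oxoglutarate dehydrogenase complex, was 47.0 ± 6.97 against 41.5 ± 8.29. The fitted differences of these 5 genes ran from -0.04 to 0.23 and the groups overlapped in each.

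The kinases that switch the complex off were led by *Pdk2*. It took 55.8, 60.4 and 54.5% of the summed FPKM of the 4 kinases in WT mice and 59.1, 46.8 and 59.6% in KO mice, and *Pdk4*, the kinase known to be induced by fasting and fatty acids, took the least in every library, 4.85% to 9.65%. *Pdk2* itself was 42.6, 45.7 and 33.3 FPKM in WT mice and 48.4, 22.5 and 59.5 FPKM in KO mice, with KO 2 below and KO 1 and KO 3 above every WT mouse (fitted difference 0.00, SE 0.33). *Pdk4* was 4.20, 3.67 and 5.90 FPKM in WT and 7.62, 3.78 and 7.26 in KO mice, and *Pdk3* was 14.9, 11.0 and 11.1 in WT and 14.9, 8.89 and 19.7 in KO mice. For *Pdk4*, KO 2 lay apart from the other KO mice. For *Pdk3*, the KO mice were spread out, with KO 2 the lowest of all libraries. *Pdk1*, the kinase known as a target of hypoxia signaling, had the smallest spread of the 4 among KO mice, at 12.4 ± 1.28 FPKM against 13.6 ± 2.41 in WT mice.

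The phosphatases that switch the complex on were scarce, and both had fitted values below 0. *Pdp1*, the calcium-stimulated catalytic subunit, was 6.74, 4.09 and 4.06 FPKM in WT mice and 2.94, 5.79 and 2.57 FPKM in KO mice (log2 fold change -0.35, SE 0.33, exact permutation p = 0.4, limma adjusted p = 0.902). It was the single gene of the 34 with both KO 1 and KO 3 below every WT mouse, with KO 2 between WT 1 and the other WT mice. *Pdp2* was 2.68, 2.58 and 2.86 FPKM in WT mice and 0.874, 2.30 and 3.12 FPKM in KO mice, where KO 1 alone was far from the rest. Kinases took 85.6% to 95.6% of the summed FPKM of kinases and phosphatases over the 6 libraries, with KO 1 at the upper and KO 2 at the lower end. *Pcx*, the carboxylase that makes oxaloacetate from pyruvate, was 24.8, 24.5 and 22.7 FPKM in WT and 16.5, 19.9 and 26.9 in KO mice, and the groups overlapped.

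**Figure D4:**
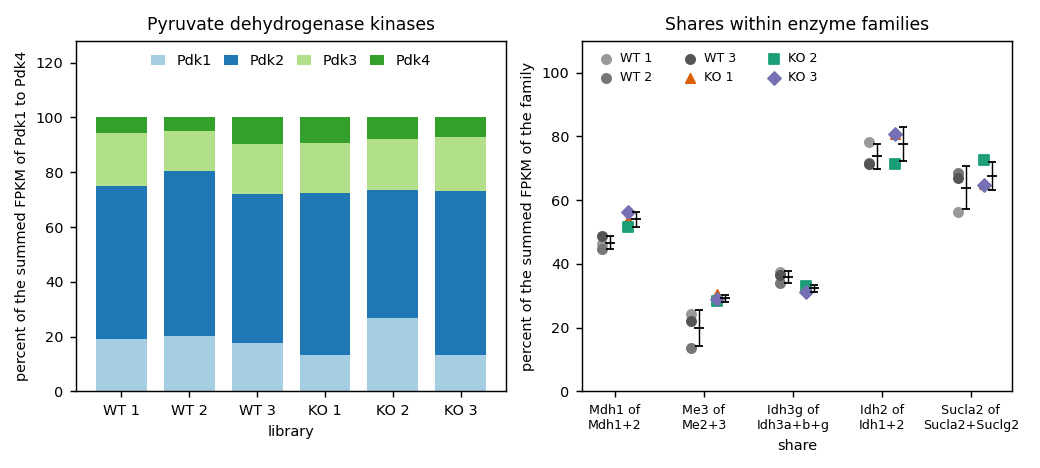
The left panel stacks, for each library, the percent of the summed FPKM of the 4 pyruvate dehydrogenase kinases that each kinase took, and the right panel shows 5 shares within enzyme families as percent, with points for libraries and bars for the mean ± SD of 3 mice. *Pdk2* is the largest share in every library, and the *Mdh1* and *Me3* shares lie higher and the *Idh3g* share lower in all 3 KO mice than in all 3 WT mice.

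The first steps of the cycle showed little difference in mean and a wide KO spread. *Cs*, citrate synthase, was 55.2, 54.5 and 62.4 FPKM in WT mice and 56.4, 48.9 and 72.0 FPKM in KO mice (log2 fold change 0.03, 95% interval -0.43 to 0.49). *Aco1*, the cytosolic aconitase that also serves as iron regulatory protein, held to 18.7 to 20.1 FPKM in WT mice and spread to 18.9, 12.7 and 28.3 FPKM in KO mice.

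NAD-dependent isocitrate dehydrogenase is built from a catalytic subunit, *Idh3a*, and the subunits *Idh3b* and *Idh3g*. *Idh3a* was 43.9, 36.1 and 41.6 FPKM in WT mice and 48.3, 26.5 and 62.6 FPKM in KO mice. *Idh3b* was 72.5 ± 9.26 FPKM in WT and 81.4 ± 13.3 in KO mice, and *Idh3g* was 63.6 ± 9.32 and 60.7 ± 13.1. Within the enzyme, *Idh3g* took 37.4, 33.9 and 36.4% of the summed FPKM in WT mice and 33.1, 33 and 31.1% in KO mice. The share was lower in every KO mouse, with a difference in means of -3.51 percentage points (exact permutation p = 0.1, the smallest that 3 against 3 mice allow, adjusted p = 0.6 over 18 shares). The groups came to overlap when the libraries were corrected for GC content and length together, with a difference of -3.49 points.

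Of the NADP-dependent isocitrate dehydrogenases, mitochondrial *Idh2* had the highest fitted difference of the 34. It was 71.9, 64.8 and 57.3 FPKM in WT mice and 107, 56.0 and 112 FPKM in KO mice, so KO 1 and KO 3 were 1.66- and 1.73-fold of the WT mean and KO 2 was below every WT mouse. The log2 fold change was 0.44 (SE 0.27, 95% interval -0.17 to 1.05, exact permutation p = 0.4) with all libraries and 0.76 (SE 0.16, limma p = 0.00149, adjusted p = 0.159) without KO 2. It was 0.29 without KO 1 and 0.26 without KO 3. Cytosolic *Idh1* was 20.0, 25.5 and 23.2 FPKM in WT and 25.7, 22.4 and 26.4 in KO mice, a much narrower spread. *Idh2* took 71.2% to 78.2% of the pair in WT mice and 80.6, 71.4 and 80.9% in KO 1 to KO 3.

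The 2-oxoglutarate dehydrogenase complex split by subunit in KO 1. *Ogdh*, its E1, was 65.6, 64.8 and 73.3 FPKM in WT mice and 58.5, 44.5 and 87.1 FPKM in KO mice, low in KO 1 and KO 2 and high in KO 3. *Dlst*, its E2 succinyltransferase, was 36.0, 54.2 and 40.1 FPKM in WT mice and 68.3, 36.5 and 64.8 FPKM in KO mice, high in KO 1 as well as in KO 3. The log2 fold changes were -0.15 (SE 0.25) and 0.34 (SE 0.27).

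Succinate-CoA ligase held the single gene of the 34 in which the groups did not overlap. *Sucla2*, the subunit that makes the enzyme ADP-specific, was 37.5, 35.6 and 35.7 FPKM in WT mice and 49.6, 41.1 and 42.9 FPKM in KO mice. All 3 KO mice, KO 2 included, were above all WT mice, as in 5.37% of all genes tested, and in 0 of the 34 were all KO mice below, beside 5.70%. The log2 fold change of *Sucla2* was 0.28 (SE 0.18, 95% interval -0.12 to 0.69, limma p = 0.151, adjusted p = 0.849, exact permutation p = 0.1) and ran from 0.21 to 0.34 when each mouse was left out in turn. The difference was 0.15 after correction for GC content and 0.13 after correction for GC content and length. The groups stayed apart after correction for length and for GC content and length together, but overlapped after correction for GC content alone. Without the filter on low values its unadjusted limma p was 0.0185. *Suclg1*, the alpha subunit common to both forms of the enzyme, was 50.5, 58.1 and 41.9 FPKM in WT and 72.9, 46.2 and 76.2 in KO mice. *Suclg2*, the GDP-specific counterpart of *Sucla2*, was 29.2, 16.4 and 17.6 in WT and 26.5, 15.5 and 23.3 in KO mice, where a high WT 1 widened the WT range. *Sucla2* took 63.9 ± 6.69% of the *Sucla2* and *Suclg2* sum in WT and 67.5 ± 4.36% in KO mice, which overlapped.

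Succinate dehydrogenase, the enzyme that is also complex II of the respiratory chain and the one complex with no subunit encoded in mitochondrial DNA, showed the library split in all 4 subunits. *Sdhc* was 125, 117 and 130.3 FPKM in WT mice and 177, 83.1 and 185 FPKM in KO mice. *Sdhb* was 95.5, 107 and 111 in WT mice and 123, 65.9 and 126 in KO mice. In each of *Sdha*, *Sdhb*, *Sdhc* and *Sdhd*, KO 1 and KO 3 were above every WT mouse and KO 2 was the lowest of the 6 libraries. The flavoprotein *Sdha* was 104, 72.5 and 125 FPKM in KO mice against 82.4 to 95.7 in WT mice, and the membrane anchor *Sdhd* was 72.8, 52.4 and 96.1 against 61.0 to 66.6. Fitted differences of the 4 were -0.05 to 0.17 with all libraries. Without KO 2 the *Sdhc* difference was 0.54 (SE 0.14, limma adjusted p = 0.213), and without KO 3 it was -0.03. *Sdhb* took 27.4 ± 1.53% of the summed FPKM of the 4 subunits in WT and 24.5 ± 1.1% in KO mice, with overlap.

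*Fh1*, fumarase, was 57.1, 54.0 and 47.4 FPKM in WT mice and 60.9, 30.8 and 59.1 FPKM in KO mice. KO 2 was at 0.583 of the WT mean, and the other KO mice were just above the highest WT mouse. *Mdh2* showed the same pattern, at 144, 134 and 147 FPKM in WT mice and 161, 83.9 and 162 FPKM in KO mice (log2 fold change -0.12, SE 0.27). *Mdh1*, the cytosolic enzyme of the malate-aspartate shuttle, was 123, 109 and 140.5 FPKM in WT mice and 188, 89.9 and 208 FPKM in KO mice. Its log2 fold change was 0.30 (SE 0.31) with all libraries and 0.68 (SE 0.16, limma adjusted p = 0.185) without KO 2. It was 0.15 without KO 1 and 0.08 without KO 3.

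The malate dehydrogenases were also compared with each other within each library. *Mdh1* took 46.2, 44.8 and 48.8% of the summed FPKM of *Mdh1* and *Mdh2* in WT mice and 53.9, 51.7 and 56.3% in KO mice. Every KO mouse was above every WT mouse, by 7.36 percentage points in the mean with KO 2 the lowest of the KO mice (exact permutation p = 0.1, adjusted p = 0.6 over 18 shares), and by 6.21 to 8.48 points when each mouse was left out in turn. After correction for GC content the shares were 47.2, 47.5 and 50% in WT and 52.6, 48.3 and 56.2% in KO mice, which overlapped through KO 2 (4.12 points), and they overlapped likewise after correction for GC content and length (4.63 points).

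The mitochondrial malic enzymes, which make pyruvate from malate, were compared in the same way. *Me2* was 17.8, 16.8 and 14.9 FPKM in WT mice and 13.4, 9.76 and 18.0 FPKM in KO mice. *Me3* was 5.72, 2.64 and 4.20 FPKM in WT mice and 5.88, 3.84 and 7.32 FPKM in KO mice. Neither passed the test, with log2 fold changes of -0.28 (SE 0.24) and 0.37 (SE 0.32). *Me3* took 24.4, 13.6 and 22.0% of the pair in WT mice and 30.5, 28.3 and 29.0% in KO mice, above in every KO mouse by 9.25 points (exact permutation p = 0.1, adjusted p = 0.6 over 18 shares), and this was the 1 share of the 18 without overlap under each of the corrections for GC content, length and both (9.07, 9.86 and 10 points). WT 2 had the lowest share, and without it the difference in share was 6.05 points and the log2 fold change of *Me3* was 0.14, and the range with each mouse left out in turn was 6.05 to 11.4 points. *Acly*, the cytosolic enzyme that splits exported citrate into acetyl-CoA and oxaloacetate, held to 25.2 to 27.0 FPKM in WT mice and was 27.3, 16.0 and 30.2 FPKM in KO mice.

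Of 37 further genes around the cycle (such as carriers, assembly factors and enzymes of lipoate and iron-sulfur clusters), 2 had a limma p under 0.05, both higher in KO mice and beside the same 5.88% of all genes, and 0 passed after adjustment. *Slc25a13*, a mitochondrial aspartate-glutamate carrier of the malate-aspartate shuttle, was 1.74, 2.03 and 2.44 FPKM in WT mice and 2.92, 4.85 and 8.41 FPKM in KO mice (log2 fold change 0.97, SE 0.35, exact permutation p = 0.1, limma p = 0.0189, adjusted p = 0.841). In 3 of the 37 genes, *Slc25a13* among them, every KO mouse was above every WT mouse, beside 5.37% of all genes. In 0 of the 37 was every KO mouse below every WT mouse, beside 5.70% of all genes. The count of 2 was 10 without KO 2, beside 13.1% of all genes, 1 without KO 1, beside 3.58%, and 0 without WT 1, beside 4.65%. The median of the 37 was 0.16, against -0.01 for all genes. Of their fitted values, 27 were above 0 and 10 below, beside 49.2% above 0 over all genes.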

How the data were processed

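Total RNA of cerebral microvessels (3 WT mice and 3 TEKCRIF1 KO mice) had been extracted with TRIzol, prepared with a strand-specific NEBNext Ultra II kit and sequenced as paired ends. Reads were trimmed with FASTX_Trimmer and BBMap and mapped with TopHat, with mm10 named in the submitters' processing notes, and the authors deposited FPKM values, 1 per gene symbol and library. The annotation and any normalization between libraries were not given in the sources used here. The authors' DESeq2 test needs read counts, which FPKM are not, so limma 3.58.1 in R 4.3.3 was used on log2(FPKM + 1) with a trended prior variance, for genes whose mean over the libraries reached 1 FPKM. Fold changes on this scale understate the change of low genes. P-values are two-sided and Benjamini-Hochberg adjusted over all 14247 genes. They measure the spread between 3 mice per group.

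The 34 members, the 37 partners, the marker lists and the motifs were chosen with earlier results of these data known. All members were named. Partners were named when their unadjusted p was under 0.05 or the groups did not overlap. Some of these are counted but not reported here by name. Shares within enzyme families were computed per library as percent of summed FPKM and compared by exact two-sided permutation tests in Python 3.11.15 with scipy 1.17.1. Depth was estimated from the steps between low FPKM values of the same gene, below 0.3 FPKM, and scaled by annotated lengths. Floors from it cover counting error only. Lengths and GC content came from GENCODE M21 (GRCm38), for 22148 of 23183 symbols, and trends were removed by loess (span 0.3). Promoter sequences came from RefSeq. The alternatives were other filters, scalings, pseudocounts and priors, GC and length correction, a replicate block, and leaving out each mouse. KO 2 alone against WT was chosen after seeing the data.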

Additional observations from a re-analysis of the deposited data

How the results depend on the processing

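No member passed the adjusted threshold under any alternative. With each mouse left out in turn, 0 to 8 members had an unadjusted limma p under 0.05 (450 to 1871 of all genes, 0 to 4 after adjustment), 13 to 29 had fitted values above 0, their median ran from -0.07 to 0.29, 0 to 10 partners had a p under 0.05 and 4 to 7 of the 18 shares did not overlap, against 3 with all mice, where fewer mice also leave fewer values that can overlap. The 8 members, 10 partners, 7 shares and 1871 genes came without KO 2, the 13 members above 0 and the median of -0.07 without KO 3, the 450 genes without WT 2, and 0 partners without WT 1. Of all genes, 4 passed after adjustment without KO 2, 4 without KO 3 and 1 without WT 3, and 510 had a p under 0.05 without KO 1. With KO 2 alone against WT, 10 members, 11 partners and 1825 genes had a p under 0.05 (7 genes after adjustment), 3 members were above 0 and the median was -0.24. Without the filter on low values, 1 member, 1 partner and 1187 of all genes had a p under 0.05 and 1 of all genes passed after adjustment. With a minimum mean of 5 FPKM 1 partner and 636 of all genes had a p under 0.05, and this filter removed *Pdp1*, *Pdp2* and *Me3*. After GC and length correction 1 share had no overlap. The causes were not tested.

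Fitted values near 0 changed sign: *Pdk2* with quantile normalization (-0.04) and a pseudocount of 0.1 (-0.00), *Sdhb* with GC correction (0.04), and, with GC correction and with GC and length correction, *Aco1* (0.01 and 0.04), *Idh1* (-0.01 and -0.02) and *Suclg2* (-0.05 and -0.04). So did the shares of *Pdk2* (1.78 and 1.24 points) and *Pdp1* (-1.5 and -2.57), of *Idh3a* (-0.4) and *Sdha* (-0.00542) with GC correction, and of *Sdhd* with both (-0.0507). Leaving out a mouse changed the sign of 17 members, with ranges for *Pdha1* -0.20 to 0.05, *Dlat* -0.07 to 0.32, *Pdk2* -0.27 to 0.41, *Pdk3* -0.08 to 0.46, *Cs* -0.12 to 0.15, *Aco1* -0.30 to 0.25, *Idh3a* -0.17 to 0.44, *Idh3g* -0.19 to 0.11, *Ogdh* -0.40 to 0.07, *Suclg2* -0.09 to 0.31, *Sdha* -0.04 to 0.36, *Sdhb* -0.21 to 0.25, *Sdhc* -0.03 to 0.54, *Sdhd* -0.06 to 0.37, *Fh1* -0.30 to 0.18, *Mdh2* -0.28 to 0.19 and *Acly* -0.31 to 0.13. It changed the sign of 9 shares, with ranges in points for *Pdk1* -5.61 to 1.15, *Pdk2* -3.97 to 2.43, *Pdk3* -0.0672 to 2.43, *Pdp1* -5.44 to 10.5, *Sucla2* -0.211 to 5.9, *Idh3a* -1.59 to 2.95, *Sdha* -0.62 to 1.68, *Sdhd* -0.16 to 1.76 and kinases -0.141 to 4.83.

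With the replicate number of the titles as a block, 0 members, 3 partners and 871 of all genes had a p under 0.05 and 0 passed after adjustment, 21 members were above 0, their median was 0.10 and *Crif1* was at -0.77. The numbers are not known to pair the mice, and deviations of same-numbered mice correlated at 0.0375, 0.0267 and 0.00159.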
